A study of Mus musculus with 6 samples.

Results

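Barrier capillary endothelial cells line the smallest vessels of the brain and carry the transporters through which the tissue is fed. In this series they were taken as all cell barcodes, over 6 single-cell RNA libraries of mouse cells, that met 1 rule. A barcode needed at least 500 detected genes and at most 10% mitochondrial counts. It also needed a unique molecular identifier (UMI, 1 counted RNA molecule) of at least 3 of the 6 endothelial genes Pecam1, Cldn5, Cdh5, Flt1, Esam and Egfl7. The summed UMIs of Mfsd2a, Slc7a5, Slc16a1, Spock2, Slc22a8 and Slco1a4 had to reach 20 per 10000 UMIs of the cell. Cells with 3 or more detected genes of an arterial list (Bmx, Sema3g, Gja4, Gja5, Fbln2, Fbln5, Eln, Gkn3) or of a venous list (Nr2f2, Vwf, Ackr1, Il1r1, Vcam1, Tmem252) were left out, as was any cell with a UMI of the mitotic gene Top2a. The rule found 5973 cells among 14165 endothelial cells and 18568 deposited barcodes.

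Each of the 6 groups was 1 library. All animals carried the Mfsd2a-CreERT2 transgene, a tamoxifen-activated recombinase under the control of a barrier endothelial gene, and all received tamoxifen. The 2 wild-type (WT) libraries carried the recombinase alone, were induced at postnatal day 1 and were harvested at day 6 (P6) or day 10 (P10). The 2 matching knockout (KO) libraries were Mfsd2a-CreERT2:Pdcd10fl/fl, induced and harvested on the same days. The other 2 libraries were of the same KO genotype at day 9 (P9), given tamoxifen with vehicle or with rapamycin, an inhibitor of the growth kinase complex mTORC1. The induction day of that pair, the number of animals in a library and the gate of the cell sort were not given in the sources used here. The recombinase is driven by Mfsd2a, which is also 1 of the 6 genes of the rule.

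Brain capillary endothelium forms the blood-brain barrier. Its cells are sealed by tight junctions, take up glucose, amino acids, lactate and lipids through dedicated transporters, and depend on Wnt signals from the surrounding tissue to keep this state. Pdcd10, also called Ccm3, is a subunit of the cerebral cavernous malformation complex, and its loss in endothelium produces leaking, enlarged vessels.

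The members numbered 843 in WT P6, 352 in KO P6, 2596 in WT P10, 1174 in KO P10, 545 in KO P9 vehicle and 463 in KO P9 rapamycin. Their summed UMIs ran from 3094210 to 13934192 per library, and the median UMIs per member cell from 4550 to 8336. The labels name the tissue as retina while the series text speaks of brain. In the members, summed markers of retinal cells lay at 3.733 to 10.66 CPM (UMIs per 1000000 member UMIs). Of these 13 markers 4 (Rpe65, Crx, Rcvrn, Arr3) were at 0 in all 6 libraries. Summed neuron markers were low as well, at 9.565 to 23.23 CPM. The members were chosen as endothelial, so these levels do not tell which tissue they came from. Xist, expressed from the inactive X chromosome of females, was at 983.2 CPM in the members of WT P6 and no higher than 0.6999 CPM elsewhere. The 4 Y-linked genes Ddx3y, Eif2s3y, Kdm5d and Uty summed to 0 UMIs in WT P6, 1 UMI in KO P6 and from 124.7 to 176.6 CPM in each of the remaining 4. The P6 libraries therefore stand apart from the rest in sex-linked genes, and also from each other, since Xist was high in WT P6 alone. The comparison of KO with WT at P6 and that of the ages both hold this difference. Its part in the genotype and age comparisons was not tested. The P9 pair shared 420 deposited barcodes, of which 1 was a member cell, in the rapamycin library. With 1 library per group, the 2 ages were the only repeats of a genotype comparison. Its p-values rest on how far the KO and WT difference was alike at the 2 ages. They do not measure the spread between libraries of 1 group.

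Members made up 61.1% of endothelial cells in WT P6 (95% exact binomial interval 58.5 to 63.7), 41.1% in KO P6 (37.8 to 44.5), 73.3% in WT P10 (71.8 to 74.8) and 38.9% in KO P10 (37.2 to 40.7). They made up 14.5% in KO P9 vehicle (13.4 to 15.6) and 28.9% in KO P9 rapamycin (26.7 to 31.2). Both WT libraries lay above the 4 KO libraries, and the rapamycin library lay above its vehicle library. The intervals cover counting error only. These shares are a description, because the genes that define the cells themselves differed between libraries. Other endothelial cells held more UMIs, with medians of 6402 to 13832, and thinning every cell to 2000 UMIs gave shares of 75.4%, 50.8%, 83.0%, 48.8%, 20.8% and 46.3% in the same order. Cells that failed on the barrier sum alone numbered 155 in WT P6, 224 in KO P6, 282 in WT P10, 980 in KO P10, 1450 in KO P9 vehicle and 433 in KO P9 rapamycin.

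**Figure D1:**
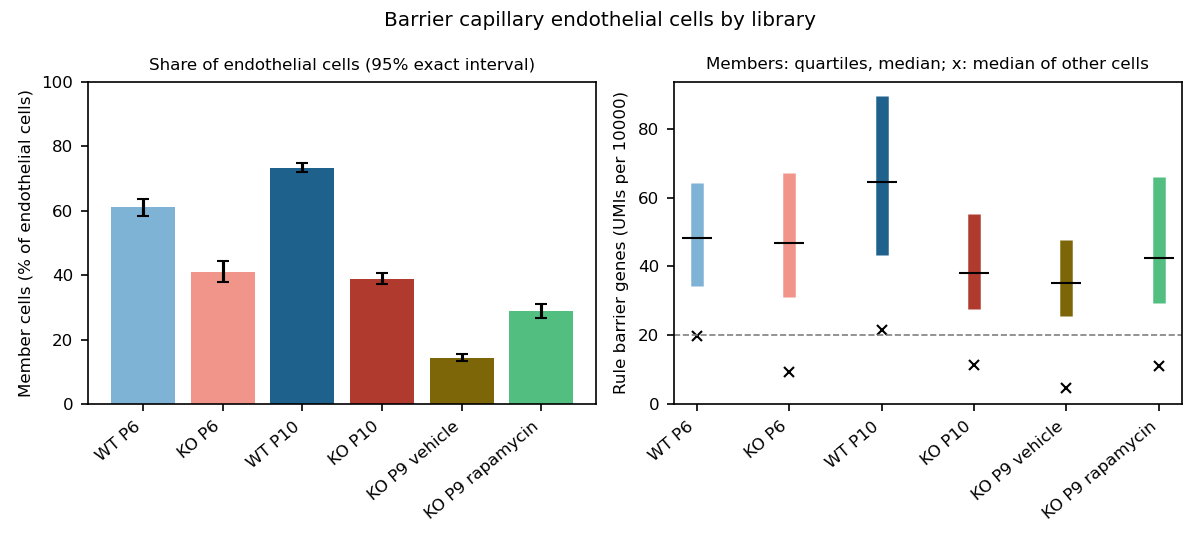
Left, member cells as a percentage of endothelial cells in each library, with 95% exact binomial intervals. Right, the summed UMIs of the 6 rule genes per 10000 cell UMIs, with bars from the lower to the upper quartile of members, a dash at their median, a cross at the median of the other endothelial cells and a dashed line at the threshold of 20; WT P10 members have the highest median, 64.6, and KO P9 vehicle members the lowest, 35.3.

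The genes that chose the cells are described here with no test. The median barrier sum of members was 48.4 UMIs per 10000 in WT P6, 46.9 in KO P6, 64.6 in WT P10, 38.1 in KO P10, 35.3 in KO P9 vehicle and 42.6 in KO P9 rapamycin. Mfsd2a, which carries lysophospholipids with docosahexaenoic acid into the brain, was at 796 and 813 CPM in the WT and KO members of P6, at 903 and 412 in those of P10, and at 481 and 541 in the vehicle and rapamycin members. Slc7a5, a large neutral amino acid transporter, was at 1436 and 1362 CPM in the WT and KO members of P6 and at 1214 and 946 in those of P10, against 246 and 266 CPM in the P9 pair. Slco1a4, an organic anion carrier, went the other way with age, from 64.3 and 143 CPM at P6 to 556 and 410 at P10, and stood at 224 CPM with vehicle and 617 with rapamycin. Slc16a1, a lactate and ketone body carrier, stayed between 1143 and 1606 CPM in all 6 libraries. Spock2, a matrix proteoglycan, ranged from 571 CPM in KO P10 to 1293 with rapamycin, and Slc22a8, an organic anion carrier, from 410 CPM with vehicle to 684 in WT P10. At the threshold itself, members with sums of 20 to 22 numbered 28, 15, 57, 96, 49 and 34 in the library order used above. Cells just outside, with sums of 18 to 20 and the rest of the rule met, numbered 28, 20, 46, 80, 52 and 39.

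Markers of other cells were present in the members. The summed pericyte markers were at 1225 and 1205 CPM in WT and KO at P6, at 914.3 and 485.8 at P10, and at 135.4 and 243.6 in the P9 pair. Summed astrocyte markers ranged from 238.8 to 407.1 CPM, and microglia or macrophage markers from 37.79 to 95.98 CPM. Haemoglobin and other red cell genes were at 668 and 6581 CPM in WT and KO at P6, at 16491 and 5648 at P10, and at 0.6464 and 2666 with vehicle and rapamycin. They were left out of the genes named. These levels moved with age and library, and their part in the results was not tested, except that 347 genes were called for genotype without cells carrying 2 or more markers of another type, 252 of them among the 328 called with all members.

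Pdcd10, the targeted gene, lies at chr3:75516490-75556856 (mm10, minus strand). Its level was 117.2 CPM in WT P6, 67.86 in KO P6, 111 in WT P10, 63.76 in KO P10, 47.51 in KO P9 vehicle and 88.42 in KO P9 rapamycin. Both WT libraries were above all 4 KO libraries. Between KO and WT the fitted log2 fold change was -0.83 (standard error 0.12, adjusted p = 0.0079 by edgeR's quasi-likelihood test with age as a term). The rapamycin library held 1.86 times the Pdcd10 level of the vehicle library (95% counting interval 1.53 to 2.27), so the P9 pair differed in the targeted transcript as well as in treatment. A count from the 3′ end of the transcript does not show which exons are left.

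The comparison of KO with WT members tested 11550 genes over the 4 libraries of P6 and P10, with 1 residual degree of freedom. At an adjusted p under 0.05, 236 genes (2.04%) were higher in KO and 92 (0.797%) were lower, 2.84% in either direction. Members of the rule's own lists stayed in the fit and are not read as results. The calls rested on the fit with age as a term and on all 4 libraries. Without the age term 1 gene was called, and with the P9 pair added 0 were, with 680 and 408 genes at an unadjusted p under 0.05. Leaving out WT P6, KO P6, WT P10 or KO P10 in turn, in fits that then had no age term, gave 0, 1, 4 and 13 calls. Among the genes higher in KO were interferon-stimulated genes, p53 targets, MHC class I processing genes and S100 and annexin genes. Among the genes lower in KO were Selenop, Apoe, Trf and Fth1.

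Interferon-stimulated genes, the antiviral genes that cells switch on when interferon reaches them, had the highest share of calls among the lists. Of 22 tested, 19 were higher in KO, 0 were lower and 3 did not pass, with a median log2 fold change of 2.54 against -0.01 over all genes tested. With KO P10 left out 6 were called, and with any other library left out 0 were. Isg15, a ubiquitin-like protein attached to other proteins, was at 33.1 and 20.5 CPM in WT P6 and WT P10 and at 378 and 108 in KO P6 and KO P10. Ifit1, which binds viral RNA, was at 3.29 and 1.51 CPM in the WT libraries and at 55.6 and 20.5 in the KO libraries. Rsad2, an antiviral enzyme, was at 0.173 and 1.79 CPM in the WT libraries and at 21.7 and 22.2 in the KO libraries. At each age the KO library was the higher one for all 3 genes.

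Interferon is known to act through a short promoter element. The promoters of 4 called genes are printed, 3 with a match to its core and 1, that of Irf7, without. The sequences are those of RefSeq, build GRCm38.p6, 250 bases before to 50 after each annotated start, 5′ to 3′ on the strand of the gene. Capitals mark matches to GAAANNGAAA on either strand (TTTCNNTTTC on the other), the core of the interferon-stimulated response element; overlapping matches run together.
Isg15, chr4:156200769-156201068, minus strand: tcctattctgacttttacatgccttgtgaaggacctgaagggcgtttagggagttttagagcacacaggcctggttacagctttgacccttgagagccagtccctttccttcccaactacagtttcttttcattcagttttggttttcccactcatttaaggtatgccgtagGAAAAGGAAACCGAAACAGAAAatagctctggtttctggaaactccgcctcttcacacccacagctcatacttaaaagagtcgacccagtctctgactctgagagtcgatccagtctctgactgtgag
Ifit1, chr19:34640639-34640938, plus strand: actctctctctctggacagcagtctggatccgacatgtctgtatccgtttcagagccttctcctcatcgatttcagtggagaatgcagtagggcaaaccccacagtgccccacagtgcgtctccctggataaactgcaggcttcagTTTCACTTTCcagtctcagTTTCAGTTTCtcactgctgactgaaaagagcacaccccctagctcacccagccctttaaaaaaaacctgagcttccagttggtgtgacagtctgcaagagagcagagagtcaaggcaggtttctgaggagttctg
Rsad2, chr12:26456403-26456702, minus strand: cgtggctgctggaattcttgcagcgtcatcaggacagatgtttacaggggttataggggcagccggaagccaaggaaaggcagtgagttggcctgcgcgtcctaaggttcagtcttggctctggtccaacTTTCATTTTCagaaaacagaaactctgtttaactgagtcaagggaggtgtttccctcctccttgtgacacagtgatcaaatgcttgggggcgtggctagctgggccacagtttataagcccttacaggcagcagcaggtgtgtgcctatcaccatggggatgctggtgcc
Irf7, chr7:141266375-141266674, minus strand: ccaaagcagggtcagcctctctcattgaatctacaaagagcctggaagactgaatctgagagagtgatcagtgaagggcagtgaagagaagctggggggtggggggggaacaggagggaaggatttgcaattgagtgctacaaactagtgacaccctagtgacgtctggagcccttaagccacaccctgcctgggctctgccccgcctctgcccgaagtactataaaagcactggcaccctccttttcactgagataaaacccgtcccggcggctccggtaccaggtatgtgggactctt
Isg15 held 3 overlapping matches, Ifit1 2 and Rsad2 1, while these letters were not in the Irf7 window. Of the 19 interferon-stimulated genes higher in KO, 16 had a promoter in the table and 9 of those (56.25%) held a match. Of all 32851 promoter windows, 1131 (3.44%) did, and of the 9058 tested genes with a promoter 318 (3.51%) did. Of the 181 genes higher in KO with a promoter, 27 (14.92%) held a match, as did 2 (3.03%) of the 66 lower ones. The 2 interferon-stimulated genes that were not called and had a promoter both held a match. A match is a description of the letters and not of binding.

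The antiviral genes were followed by the machinery that presents peptides on MHC class I. Of 17 such genes tested, 5 were higher in KO and 0 lower, namely B2m, Psmb8, Psmb9, Psmb10 and Tap1. Among all genes tested 2.04% were higher. B2m, the invariant chain of the class I molecule, was at 821 and 621 CPM in the WT members of P6 and P10 and at 2344 and 1289 in the KO members. Psmb8, an immunoproteasome subunit, was at 19.1 and 16.7 CPM in WT and at 75.6 and 43.6 in KO. The heavy chain H2-K1 did not pass (adjusted p = 0.70): it was 218 against 81.8 CPM at P6 and 168 against 239 at P10, so the 2 ages had opposite directions, and its reads can be shared with near-identical class I genes. Irf7, a transcription factor that amplifies the interferon response, was at 23.9 and 9.47 CPM in WT and at 246 and 53.3 in KO.

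Single cells were counted for UMIs of these genes. After thinning to 2000 UMIs, 84.1% of 340 KO P6 members had UMIs of at least 3 interferon-stimulated genes, against 14.5% of 812 in WT P6. At P10 the shares were 35.8% of 1039 in KO and 6.32% of 2280 in WT, and in the P9 pair 31.3% of 469 with vehicle and 19.4% of 444 with rapamycin. Counted on all UMIs, 60.7% of WT and 99.1% of KO members passed at P6, 31.0% and 73.0% at P10, and 69.7% with vehicle and 72.1% with rapamycin. Other endothelial cells of the same libraries gave thinned shares of 13.9% and 82.6% at P6, 12.5% and 31.8% at P10, and 30.2% and 16.1% in the P9 pair. As a background, cells of the same libraries with at most 1 endothelial marker were thinned alike. There 1 of 62 (1.61%) passed in WT P6 and 3 of 67 (4.48%) in KO P6, at median UMIs of 3974 and 5173. At P10 it was 4 of 23 (17.4%) in WT and 2 of 24 (8.33%) in KO, and at P9 5 of 46 (10.9%) with vehicle and 0 of 20 with rapamycin, whose 95% exact upper bound is 16.8%. The share of WT P10 members lay below that background and is not read as expression. None of the 22 interferon-stimulated genes was called for a KO difference that differed between members and other endothelial cells, where 155 of 12222 genes (1.27%) were called in either direction.

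Targets of p53, the transcription factor that answers DNA damage and other stress, were the next group. Of 20 tested, 11 were higher in KO and 0 lower, with a median log2 fold change of 0.75. Over all genes tested 2.04% were higher, with a median of -0.01. Leaving out 1 library gave 0 calls (without WT P6) to 2 (without KO P10). Phlda3, which restrains the kinase Akt, was at 2.95 and 3.73 CPM in WT P6 and WT P10 and at 142.5 and 143.4 in KO P6 and KO P10, a fitted log2 fold change of 5.33 (standard error 0.16, adjusted p = 3.7e-06 by edgeR). Its KO over WT ratio was 48.4 at P6 (95% counting interval 29.9 to 83.8) and 38.4 at P10 (29.1 to 51.8). Ccng1, a cyclin induced by p53, was at 11.8 and 12.9 CPM in WT and at 90.8 and 69.4 in KO. Gdf15, a secreted stress factor, was at 1.91 and 3.45 CPM in WT and at 22.6 and 32.9 in KO. Eda2r, a receptor of the tumour necrosis factor receptor family, was at 0.173 and 0.0718 CPM in WT and at 10.0 and 10.7 in KO.

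Of the 2 best known outputs of p53, 1 passed the test. Mdm2, its negative regulator, rose from 70.7 and 93.8 CPM in WT to 131 and 155 in KO (log2 fold change 0.76, adjusted p = 0.013). Cdkn1a, the cell cycle inhibitor p21, was 1467 against 814 CPM at P6 and 1533 against 1329 at P10, with an adjusted p of 0.23. Zmat3 and Aen, both p53 targets, were higher in KO at 47.5 and 51.7 CPM in KO P6 against 11.3 and 13.7 in WT P6.

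Other genes that rose most at both ages belong to none of these lists. Ephx1, an epoxide hydrolase that detoxifies foreign compounds, was at 1.04 and 5.53 CPM in WT and at 45.6 and 46.8 in KO. Dcxr, a carbonyl reductase, was at 7.11 CPM in both WT libraries and at 74.97 and 43.2 in KO. Cox6b2, a subunit of cytochrome oxidase, was at 5.72 and 6.03 CPM in WT and at 94.4 and 39.6 in KO. Snhg15, a long noncoding RNA, was at 9.02 and 8.76 CPM in WT and at 60.1 and 47.9 in KO. By the rule that named them, the KO library was the higher one at both ages.

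**Figure D2:**
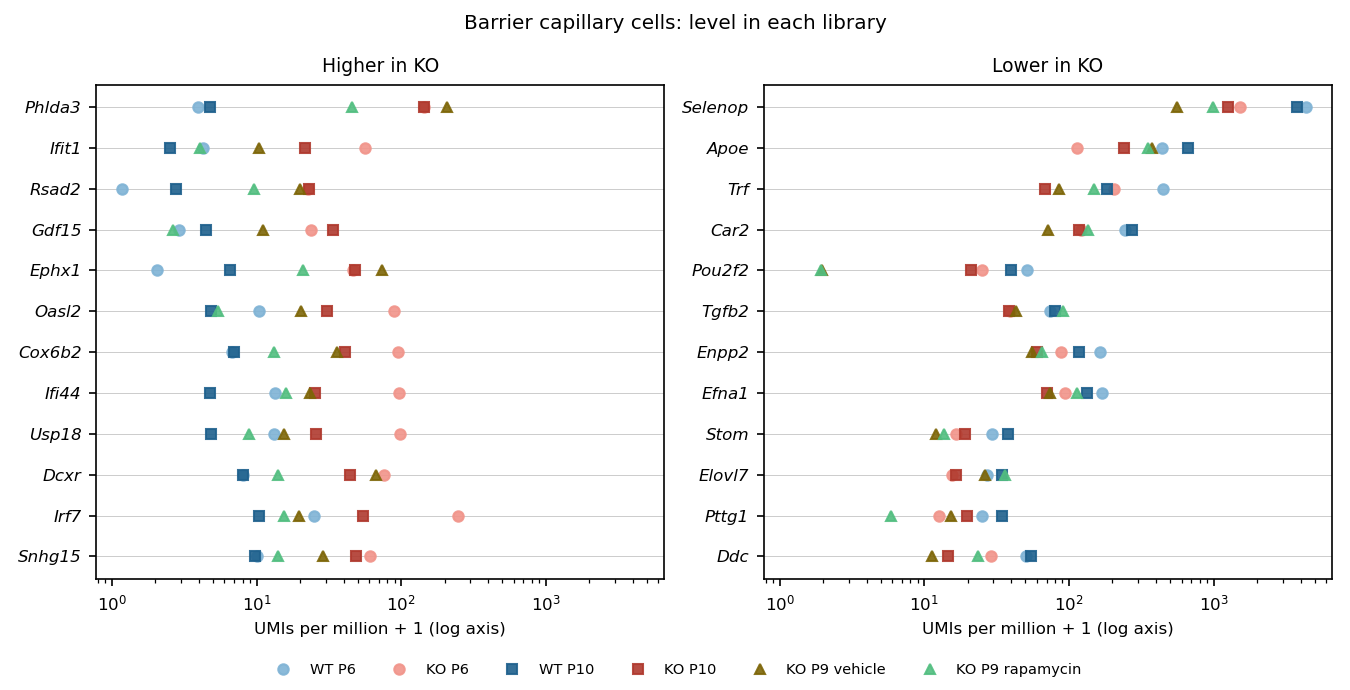
Level of the 12 genes that rose most and the 12 that fell most in KO members, chosen by the rule for named genes; each point is 1 library, on a log axis of UMIs per 1000000 plus 1, with circles for P6, squares for P10 and triangles for P9. Phlda3 lies near 143 in both KO libraries of P6 and P10 and under 4 in both WT libraries; Selenop lies at 1531 and 1250 in KO and at 4364 and 3755 in WT.

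Of 13 S100 and annexin genes, which encode calcium-dependent proteins, 6 rose and 0 fell, with a median log2 fold change of 0.59. Of all genes tested 2.04% rose, with a median of -0.01. Anxa2 was at 314 and 135 CPM in WT and at 621 and 461 in KO, and S100a11 at 191 and 223 in WT and at 447 and 519 in KO. Of 9 genes of caveolae, the membrane pits that barrier cells keep few of, 3 rose: Cav1 (217 and 167 CPM in WT, 325 and 368 in KO), Cav2 and Ehd4. That list had a median log2 fold change of 0.23. Plvap, the diaphragm protein of fenestrated vessels, was at 4.86 and 1.15 CPM in WT and at 3.88 and 2.15 in KO (adjusted p = 0.86). In the other endothelial cells Plvap was at 5.45 and 3.38 CPM in WT and at 49.6 and 61.6 in KO. Of 19 tip cell and sprouting genes, 3 rose (Apln, Kcne3, Pgf), with Apln, the apelin peptide, at 368 and 406 CPM in WT and at 1213 and 1051 in KO. The median log2 fold change of the sprouting list was 0.15.

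In the Mekk3-Klf axis, which the cerebral cavernous malformation complex normally restrains, 2 of 15 genes tested rose, 0 fell and 13 did not pass. The median log2 fold change of the list was 0.08, against -0.01 over all genes tested, of which 2.04% rose. Klf2, a flow-responsive transcription factor, was at 953 and 1197 CPM in WT and at 1580 and 2202 in KO (log2 fold change 0.77, adjusted p = 0.025). Thbd, thrombomodulin, was at 30.2 and 45.1 CPM in WT and at 40.4 and 94.0 in KO (adjusted p = 0.048). Klf4 was at 534 and 1109 CPM in WT and at 731 and 1445 in KO, with an adjusted p of 0.22. Heg1, the receptor that anchors the complex, also rose (adjusted p = 0.034).

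Genes of barrier function gave no call for genotype. Of 27 transporters, 18 junction genes and 20 Wnt genes tested, 0 rose and 0 fell with genotype at an adjusted p under 0.05 by edgeR. Their median log2 fold changes were -0.01, -0.02 and -0.24 in that order, against -0.01 over all genes tested. The transporters are outside the rule, while the junction list holds its endothelial genes Cldn5, Cdh5 and Esam. Slc2a1, the glucose transporter, was at 776 and 963 CPM in WT and at 1257 and 1318 in KO, higher in both KO libraries, with a fitted log2 fold change of 0.54 and an adjusted p of 0.10. Cldn5, the main tight junction claudin and 1 of the endothelial genes of the rule, was at 8463 and 5835 CPM in WT and at 8181 and 7360 in KO. Tjp1, a junction scaffold, was at 123 and 121 CPM in WT and at 98.2 and 76.4 in KO (adjusted p = 0.079). Lef1, a Wnt transcription factor, was at 118 and 94.9 CPM in WT and at 86.6 and 88.6 in KO (adjusted p = 0.30). The rule keeps only cells with high barrier expression, so cells whose barrier genes fell below the threshold were not in this comparison.

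**Figure D3:**
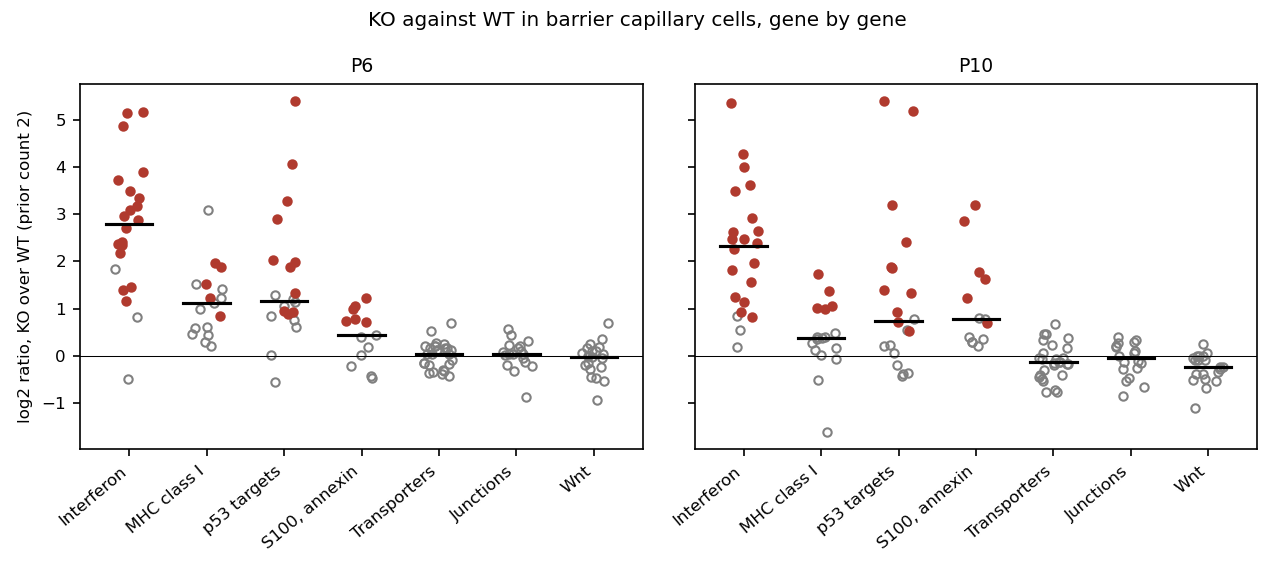
Log2 ratio of KO over WT members for every tested gene of 7 lists, at P6 and at P10, with a prior count of 2; red points passed the genotype test, open grey points did not, and bars are medians. The interferon-stimulated genes have medians of 2.80 at P6 and 2.33 at P10, and the transporters, junction and Wnt genes have medians from -0.23 to 0.04.

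Genes lower in KO included carriers of iron, selenium and lipid. Selenop, which carries selenium, was at 4364 and 3755 CPM in WT P6 and WT P10 and at 1531 and 1250 in KO P6 and KO P10 (log2 fold change -1.59, standard error 0.14, adjusted p = 0.00079 by edgeR). Trf, transferrin, was at 444 and 182 CPM in WT and at 205 and 67.1 in KO. Fth1, ferritin heavy chain, was at 10826 and 7363 CPM in WT and at 4741 and 4297 in KO. Apoe, apolipoprotein E, was at 440 and 661 CPM in WT and at 113 and 240 in KO; it stood at 1220 CPM in cells with at most 1 endothelial marker, and the part of free RNA in its level was not tested. Of 15 iron and selenoprotein genes tested, 3 were lower and 0 higher, where 0.797% of all genes tested were lower. Car2, a carbonic anhydrase, was at 244 and 271 CPM in WT and at 120 and 117 in KO, and Efna1, a membrane-bound ephrin, at 169 and 131 in WT and at 93.1 and 69.1 in KO.

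Of 15 capillary genes outside the rule, 3 were lower in KO: Hmcn1, Tgfb2 and Ddc. Among all genes tested 0.797% were lower. Tgfb2, a growth factor of the arterial side of the capillary bed, was at 73.2 and 78.5 CPM in WT and at 38.5 and 37.3 in KO. Ddc, aromatic amino acid decarboxylase, was at 49.2 and 54.0 CPM in WT and at 27.8 and 13.6 in KO. Car4, a capillary carbonic anhydrase, was at 710 and 815.5 CPM in WT and at 303 and 883 in KO (adjusted p = 0.33). Hey1, a Notch target, was at 144 and 202 CPM in WT and at 101 and 136 in KO, the 1 call of 13 Notch genes.

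Lists of other processes gave few calls. Ribosome biogenesis (25 tested), glycolysis (21), basement membrane (16), S phase (20), G2 and mitosis (15) and immediate early genes (10) had 0 genes higher and 0 lower, and of 22 ATF4 targets only Gars rose. Over all genes, 1808 had an unadjusted p under 0.05. The mitotic lists are limited by the rule, which leaves out cells with Top2a.

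Between P6 and P10 in the same fit, 504 genes (4.36%) were higher and 315 (2.73%) lower at P10, 7.09% in either direction. Transporters of the barrier were among the higher genes, with 5 of 27 called and 0 lower. Slc30a1, a zinc exporter, was at 54.1 and 61.1 CPM in WT P6 and KO P6 and at 119 and 113 in WT P10 and KO P10. Abcb1a, the drug efflux pump P-glycoprotein, was at 86.2 and 93.4 CPM at P6 and at 171 and 129 at P10. Tfrc, the transferrin receptor, was at 298 and 307 CPM at P6 and at 419 and 545 at P10. These 3 were named from the genes called higher at P10.

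Of 16 basement membrane genes, 5 were higher at P10 (Lama5, Hspg2, Col4a1, Lamb2, Nid2), as was Cxcl12, a chemokine, from 197 and 303 to 562 and 784 CPM. Of 22 interferon-stimulated genes 15 were lower at P10 and 0 higher. Stra6, a receptor for vitamin A uptake, was at 19.8 and 20.04 CPM at P6, at 165 and 142 at P10 and at 9.05 and 15.6 in the P9 pair. Pmaip1, a p53 target that promotes apoptosis, was at 19.1 and 47.2 CPM at P6, 339 and 253 at P10 and 19.7 and 13.5 at P9. For both genes the P9 libraries lay near the P6 ones. The P6 and P10 levels of every gene came from different libraries. Age and library set therefore cannot be told apart for these genes or for any other age call. Mgll, which breaks down monoacylglycerols, rose from 17.9 and 41.0 CPM at P6 to 184 and 296 at P10, with 440 and 350 at P9. Apod, a lipid-binding lipocalin, fell from 831 and 1008 CPM to 176 and 249, and Mest, an imprinted gene, from 158 and 137 to 38.6 and 40.5. Cap1, an actin regulator, fell from 241 and 282 CPM at P6 to 19.5 and 21.3 at P10, with 84.4 and 68.1 at P9.

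At P9 the rapamycin library was compared with the vehicle library with no test, since each was 1 library. Of 6395 genes that reached 20 CPM and 30 UMIs in either library, 47 (0.735%) were past 2-fold higher with rapamycin and 82 (1.28%) past 2-fold lower. Mt1, a metallothionein that binds zinc, was at 3.23 CPM with vehicle and 54.6 with rapamycin, a ratio of 16.9 (95% counting interval 9.02 to 35.7). Hebp1, a heme-binding protein, went from 23.6 to 1.17 CPM. Col18a1, a basement membrane collagen, went from 155 to 23.1 CPM, and Anxa1 from 39.8 to 6.07. Gem, a small GTPase, went from 18.7 to 85.4 CPM, and Ndnf, a secreted factor, from 34.6 to 130 CPM. Cdh13, a cadherin held by a lipid anchor, went from 52.03 to 7.93 CPM and Htra1, a secreted protease, from 135 to 27.5. Slco1a4 is among the 47 genes past 2-fold higher, but it is a gene of the rule and is not read as a result. Red cell genes also differed, at 0.6464 and 2666 CPM, and the rapamycin members had 8336 median UMIs against 4880.

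The genes that differed by genotype were then looked up in this P9 pair, which shares no library with the genotype fit. Of the 236 genes higher in KO, 159 could be measured there, and 31 of them (19.5%) were past 2-fold lower with rapamycin and 0 past 2-fold higher. Their median log2 ratio was -0.45, and 89.3% were below 0, against a median of -0.07 and 59.5% over all 6395 genes. With only cells of at least 1000 genes, more genes were called higher in KO and 349 could be measured. Of these, 39 (11.2%) were past 2-fold lower and 4 past 2-fold higher. Of the 92 genes lower in KO, 66 could be measured, 6 (9.09%) were past 2-fold higher with rapamycin and 0 past 2-fold lower, with a median of 0.32. The difference in Pdcd10 between the 2 libraries stood in the same direction as these ratios, and its part was not tested.

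Named genes show the range of these ratios. Phlda3 was at 206 CPM with vehicle and 44.3 with rapamycin, a ratio of 0.216 (0.182 to 0.254). Ccng1, Zmat3, Aen and Sesn2, all p53 targets, were also past 2-fold lower, 5 of the 14 measured p53 targets in all. Of the 12 interferon-stimulated genes above the minimum, 0 were past 2-fold, with a median of -0.61, and Isg15 was at 97.3 CPM with vehicle and 52.5 with rapamycin. Others of that list under the minimum of 20 CPM were past 2-fold lower, such as Oasl2 at 19.4 and 4.43 CPM, Ifit1 at 9.37 and 3.03 and Rsad2 at 19.1 and 8.63, so the count depends on the minimum. Tgfb2 and Ddc, lower in KO, were past 2-fold higher with rapamycin, at 42.3 and 89.6 CPM and at 10.3 and 22.6. Selenop was at 561 and 992 CPM, below both WT libraries in each.

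**Figure D4:**
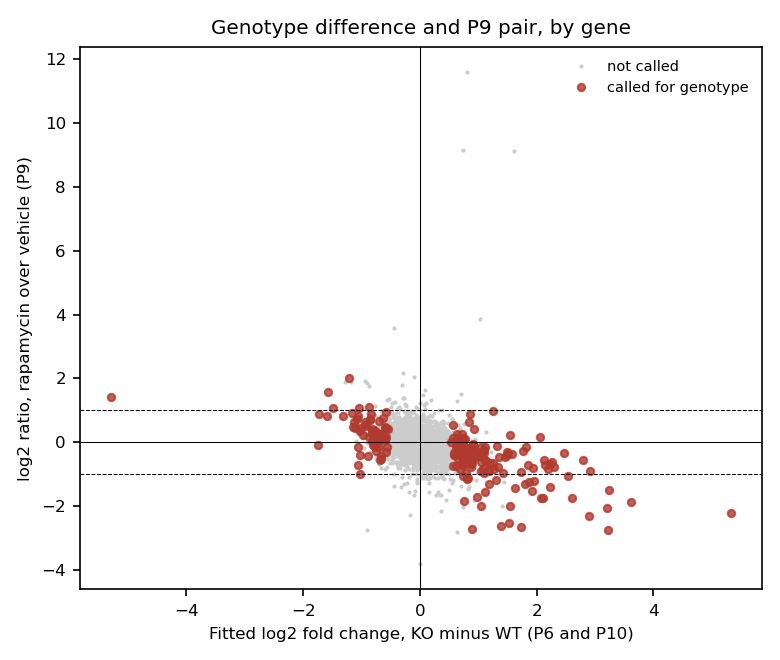
Each point is 1 of the 6377 genes outside the rule that could be measured in the P9 pair and were tested for genotype; the horizontal axis is the fitted log2 fold change of KO against WT at P6 and P10, the vertical axis the log2 ratio of rapamycin over vehicle at P9, and dashed lines mark 2-fold. The 225 genes called for genotype are red; of the 159 higher in KO, 142 lie below 0 on the vertical axis, and the 3 grey points above 9 are haemoglobin genes.

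Within the members, transporters, junction genes, Wnt genes and ribosome biogenesis genes changed with the barrier sum in 1 direction each in all 6 libraries. The bins of 20 to 40, 40 to 80 and above 80 UMIs per 10000 are defined by the rule genes, and the other lists are described with no test. The summed level of the 28 transporters outside the rule rose across the bins in all 6 libraries, from 7056 to 12516 CPM in WT P6 and from 7743 to 12766 in KO P10. Their rise was shared by Wnt genes, from 1905 to 3456 CPM in WT P6 and from 2125 to 3385 in KO P10. Genes of ribosome biogenesis fell across the bins in all 6 libraries, from 2812 to 1781 CPM in WT P6 and from 2680 to 1727 in KO P10. Interferon-stimulated genes showed no common order, at 4244, 4742 and 4128 CPM in KO P6. The median UMIs per cell also fell across the bins, from 6967 to 3964 in WT P6 and from 6348 to 2910 in KO P10, and its part in these levels was not tested. The highest bin held 26 cells with vehicle and 858 in WT P10.

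**Figure D5:**
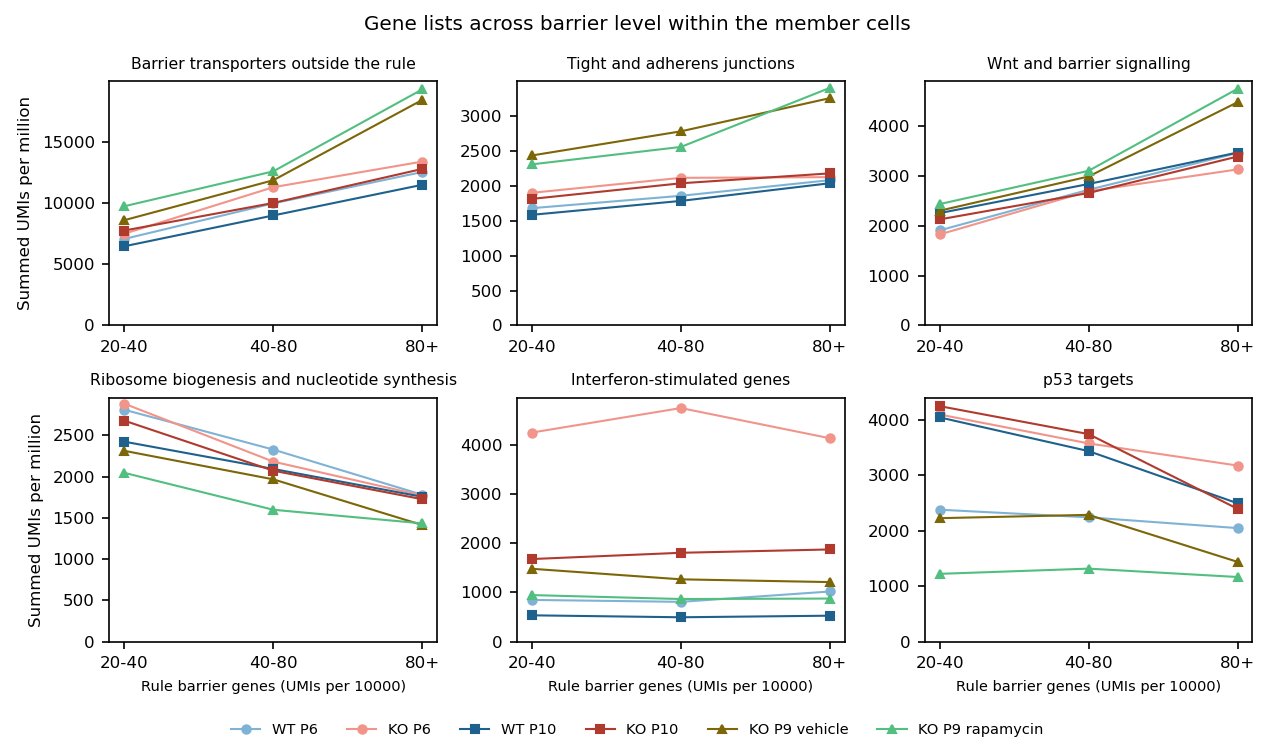
Summed level of 6 gene lists in UMIs per 1000000, by bin of the rule's barrier sum within member cells, with 1 line per library. Transporters, junction and Wnt genes rise from the lowest to the highest bin and ribosome biogenesis genes fall in all 6 libraries; interferon-stimulated genes stay highest in KO P6, at 4128 to 4742.

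Against other endothelial cells of the same library, the rule chose the contrast, and the levels are a description. Of 4807 genes measured in all 6 libraries, 1337 (27.8%) were higher in members in every library and 813 (16.9%) lower. Of the 22 measured transporters outside the rule 19 were higher in all 6 libraries, and of 17 Wnt genes 13. Notum, a secreted Wnt inhibitor that is also a Wnt target, was at 78.2, 66.3, 105, 65.2, 40.7 and 37.3 CPM in members and at 24.96, 23.6, 46.0, 25.3, 5.61 and 7.08 CPM in other endothelial cells, with libraries ordered as above. Fgfbp1, a carrier of fibroblast growth factors, was higher in members in every library, by log2 ratios from 1.62 to 3.74. Among the genes lower in members were Emp1, a membrane protein, and Prss23, a protease, and 14 of 17 ribosome biogenesis genes. All 8 measured genes of G2 and mitosis, Birc5, Ccnb2 and Cdc20 among them, were lower as well, and the rule removes cells with the mitotic gene Top2a.

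A test asked whether the KO difference itself was larger or smaller in members than in other endothelial cells. It called 99 of 12222 genes (0.81%) higher in members and 56 (0.458%) lower. The 99 include 4 barrier genes of the rule (Slc16a1, Slco1a4, Spock2, Slc22a8) and 2 of its arterial genes (Gja4, Fbln2), which are not read as results. Both sides came from the same 4 libraries, so the p-values do not measure the spread between animals. Ephx1, epoxide hydrolase, went from 1.04 and 5.53 CPM in WT to 45.6 and 46.8 in KO members, and from 2.64 and 8.23 to 34.8 and 22.5 CPM in the other cells. The difference of its log2 fold changes was 1.63 (standard error 0.27, adjusted p = 0.0014 by edgeR). Phlda3 differed by 1.22 (adjusted p = 0.0042), at 142.5 and 143.4 CPM in KO members and 151.3 and 133.9 in the other KO cells, with WT at 2.95 and 3.73 in members and 6.33 and 8.82 in the others. Of 27 transporters 8 were called higher, and of 20 Wnt genes 4. Of 20 p53 targets 4 were called higher (Btg2, Phlda3, Cdkn1a, Pmaip1) and 0 lower. The rule moves KO cells with low barrier sums to the other side of this contrast, so the calls on barrier-linked genes are not read as a difference of response. With other cells limited to those without Top2a, an alternative chosen after seeing the data, 23 genes were called higher and 13 lower, and with a barrier threshold of 10 the counts were 10 and 6.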

How the data were processed

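Summed single-cell counts were analysed. The deposited files hold UMI counts per gene and barcode made by Cell Ranger 6.0.1 on mm10, per the submitters' processing notes, from 3′ libraries of sorted cells, per the labels' protocols. Member cells, and in the same way other endothelial cells, were summed per library. Genotype and age were tested with edgeR 4.0.16 (R 4.3.3): TMM scaling, filterByExpr by genotype, quasi-likelihood test with age and genotype as terms, Benjamini-Hochberg adjustment, threshold 0.05, 1 residual degree of freedom. The difference of genotype effects between members and other endothelial cells had library as a block. The P9 pair had no test: genes past 2-fold were counted where either library reached 20 CPM and 30 UMIs, as log2 ratios with a prior count of 2. Intervals (95%, exact Poisson or binomial) cover counting error only. Doublets were not removed.

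Members and gene lists were chosen with earlier results of these data known. Named genes had to reach the same 20 CPM and 30 UMIs. Mitochondrial, ribosomal protein, haemoglobin, sex-linked and unnamed genes, genes of the rule, and genes whose highest member CPM was under 0.1 of that in cells with at most 1 endothelial marker were left out. They were the 12 higher and 12 lower genotype calls with the same sign at both ages, 8 each way for age, 10 each way for rapamycin and for members against other cells, and 6 each way for the difference of effects. List members could also be named. Some genes that met these rules are not reported here. Alternatives were DESeq2 1.42.0, RLE scaling, no filter, no age term, all 6 libraries, leaving out each library, other barrier thresholds, at least 1000 genes per cell, cells without markers of other types, and those chosen after seeing the data: shared barcodes left out, interferon and MHC class I genes left out of scaling, other cells without Top2a, and thinning to 2000 UMIs. The interferon share in cells with at most 1 endothelial marker was also added then. On data simulated for the genotype comparison, 139 of 200 genes changed 2-fold were recovered (69.5%, with 9 false calls over 11380 genes). Of 200 changed 1.5-fold 10 were recovered (5%), and of 200 changed 4-fold 185 (92.5%). The simulated counts had the fitted dispersion and the same genotype effect at both ages. They held no library difference in sex or free RNA, so their false calls do not measure errors from those in the real calls.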

Additional observations from a re-analysis of the deposited data

Results flagged for a closer look

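The KO effect differed between member and other endothelial cells, by edgeR's test of the difference itself, in 12 named genes. The values are the log2 fold change of KO over WT in members minus that in the other cells, so a positive value can be a larger rise or a smaller fall in members. It was positive for Ephx1 (1.629), Phlda3 (1.222), Fgfbp1 (0.902), Apod (0.8379), Madcam1 (0.8253) and Cdkn1c (0.7936). It was negative for Pttg1 (-1.11), Dut (-0.8202), Tmem176b (-0.7202), Exosc5 (-0.6813), Apobec3 (-0.68) and Ccdc58 (-0.6714). The values for Ephx1 and Phlda3 rest on few WT counts. WT P6 and WT P10 members held 6 and 77 UMIs of Ephx1 and 17 and 52 of Phlda3. Of these 12 calls, 9 were lost at a barrier threshold of 10, 9 without cells carrying markers of other types, 8 with other cells lacking Top2a and 6 with no barrier threshold; Apod was called in each of these alternatives. Apod, a lipid-binding lipocalin, was at 831 and 176 CPM in WT members and at 1008 and 249 in KO members. It was at 598 and 313 in the other WT cells and at 378 and 263 in the other KO cells. The KO libraries were thus higher among members and lower among the rest. The genotype difference of Apod in members did not pass (adjusted p = 0.24 by edgeR). Against other cells, Apod was higher in vehicle members and lower in rapamycin members (log2 ratios 1.284 and -1.342). Cdkn1c, a cell cycle inhibitor, was at 94.5 and 148 CPM in WT members and 65.6 and 185 in KO members, against 150 and 206 in the other WT cells and 62.3 and 144 in the other KO cells. Madcam1, an adhesion molecule for leukocytes, fell less in members, from 35.4 and 22.3 CPM to 15.8 and 13.2, than in the other cells, from 80.5 and 95.4 to 18.6 and 33.0. At a barrier threshold of 40 the Madcam1 difference reversed to -1.995, so its direction depends on the threshold. Pttg1, a securin of the cell cycle, fell in members, from 24.1 and 33.4 CPM to 11.6 and 18.8, and was at 65.7 and 41.7 in the other WT cells and 72.6 and 48.8 in the other KO cells. Dut, an enzyme of nucleotide metabolism, was at 19.6 to 25.8 CPM in members of the 4 libraries and at 38.8 to 94.6 CPM in the other cells. The rule leaves Top2a-positive and low-barrier cells on the other side of this contrast, and their part was not tested beyond the alternatives given with the processing.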

How the results depend on the processing

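No paired analysis was possible because replicate numbers pair no libraries where each group holds 1; age was a term of the genotype fit, and members and other cells were compared within libraries. Genotype calls numbered 236 higher and 92 lower; they were 136 and 28 with DESeq2, 0 and 0 with all 6 libraries, 518 and 373 with at least 1000 genes per cell, 1 and 0 with no age term, 657 and 457 with no barrier threshold, and 100 and 24 at a threshold of 40. Without the low-count filter 44 were lower. Leaving out 1 library gave 0 to 13 higher and 0 to 1 lower. Age calls (504 and 315) were 175 and 117 with DESeq2, 957 and 719 with at least 1000 genes, 886 and 585 with no barrier threshold, 321 and 137 with no low-count filter, 327 and 178 at a threshold of 10, and 166 and 107 at 40. Calls on the difference of effects (99 and 56) were 207 and 131 with at least 1000 genes, 35 and 8 without cells carrying markers of other types, 186 and 116 with no barrier threshold, 23 and 13 with other cells lacking Top2a, and 10 and 6 at a threshold of 10. The lower ones alone moved to 22 with RLE scaling, 92 with no low-count filter, 116 at a threshold of 40 and 34 without Mfsd2a in the sum. Genes past 2-fold with rapamycin (47 and 82) were 102 and 133 with no barrier threshold; 85 were higher at a threshold of 40, and 164 lower with a minimum of 10 CPM and 15 UMIs. The share of KO-higher genes past 2-fold lower with rapamycin went from 19.5% (31 of 159) to 11.2% (39 of 349) with at least 1000 genes. The Madcam1 difference reversed to -1.995 at a threshold of 40, and the Mgp ratio to -0.7181 without cells carrying other markers. The cause of these changes was not tested.

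Member shares (%), ordered as WT then KO at P6, WT then KO at P10, and the vehicle and rapamycin libraries, were 72.32, 67.21, 81.30, 71.40, 52.95 and 55.90 with no barrier threshold, 68.77, 50.18, 79.15, 53.96, 24.31 and 41.30 at a threshold of 10, 38.91, 23.45, 57.77, 17.83, 5.60 and 15.60 at 40, and 57.32, 35.94, 70.17, 35.23, 12.50 and 25.51 without Mfsd2a. They were 75.40, 50.81, 82.95, 48.82, 20.75 and 46.32 after thinning. Without cells carrying other markers WT P6, WT P10, KO P10 and rapamycin were at 64.78, 76.92, 42.40 and 32.23. With 1 library per group and 1 residual degree of freedom, the spread between animals is not measured, and few 1.5-fold changes could be called.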
